A study of Rattus norvegicus with 18 samples.

Results

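Kidneys of rats whose left ureter had been tied for a labelled 14 days were compared with kidneys tied for a labelled 7 days, by sequencing of poly(A)-selected RNA. The comparison used 8 of the 18 libraries of the study: 3 labelled 14 days and 5 labelled 7 days. Genes were kept where an edgeR test passed an adjusted p of 0.05 and all 3 libraries labelled 14 days lay on one side of all 5 libraries labelled 7 days. Of 14511 genes with enough counts to test, 3626 met both conditions, 1604 of them higher and 2022 lower in the libraries labelled 14 days. The rule uses the contrast itself, so counts of kept genes in the gene lists below are descriptions. All 8 libraries came from tissue labelled renal parenchyma of rats anaesthetised with ketamine, whose left ureter was ligated, and all carried the same batch label. The sources used here give no strain, sex or age. They do not tie a library to an animal either, and the p-values therefore speak of variation among libraries. The remaining 10 libraries, labelled 1 and 3 days, entered the fit and are described where they bear on this comparison, and sham-operated kidneys were not analysed here.

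Ligation of the ureter raises pressure in the tubules and stops urine flow on that side. Tubule cells lose their transporters, take on an injured state in which they secrete cytokines and shed proteins such as kidney injury molecule 1, and some divide. Macrophages and lymphocytes enter the interstitium, and fibroblasts deposit collagen as the parenchyma thins. Obstruction of this kind is a standard model of renal fibrosis, in which collagen and leukocyte transcripts are usually described as rising with time.

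The 5 libraries labelled 7 days held 5899690 to 8964703 counts and the 3 labelled 14 days held 5623716 to 6445118. Genes encoded in mitochondrial DNA took 8.05% ± 0.913 (SD, n = 5) of counts at 7 days, and 24%, 27.4% and 14.4% in replicates 1, 2 and 3 labelled 14 days. The 3 libraries labelled 14 days also stood apart from each other. On the first principal component of all 18 libraries, which held 40.9% of the variance, replicates 1 and 3 lay at 118.8 and 136.5, while replicate 2 lay at -19.6 among the 5 libraries labelled 7 days (-29.1 to -12.7). Replicate 2 stood alone on the second component, at 105.7, against 21.1 and -12.4 for the other two. The median gene spanned 0.87 log2 units over the 3 libraries labelled 14 days and 0.55 over the 5 labelled 7 days.

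Marker genes of kidney were present in all 3. Pax8, a transcription factor of nephron epithelium, read 129, 53.3 and 81.7 FPKM (fragments per kilobase of gene, relative to the library's total) in replicates 1, 2 and 3, beside 88 to 100 at 7 days. The segments differed. Summed over a list of 30 proximal tubule markers, FPKM was 783, 16000 and 666 in replicates 1, 2 and 3, beside 2390 to 6320 at 7 days. That list also holds Umod, the uromodulin gene of the thick ascending limb, which read 67.9, 2270 and 27.2 beside 65.2 to 224. The sum of 16000 in replicate 2 thus includes its 2270 FPKM of Umod. The mean log2(FPKM + 1) of the list, less the 7-day mean, was -2.40, 0.72 and -3.16 in replicates 1, 2 and 3. At 7 days it ran from -0.62 to 0.75, a range that held replicate 2. Aqp2, the water channel of the collecting duct, read 694, 43.8 and 777 beside 18.6 to 48.4, so that replicates 1 and 3 were high and replicate 2 lay within the 7-day range. The collecting duct list as a whole went another way in replicate 3: 16 of its 22 members exceeded 1 FPKM there, against all 22 in every other library of the comparison.

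Other tissues differed too. Of 15 urothelial markers, 13, 5 and 9 exceeded 1 FPKM in replicates 1, 2 and 3, against 3 in each library labelled 7 days, and their summed FPKM was 1120, 96.8 and 1070 beside 176 to 295. Upk2, a plaque protein of urothelium, read 66.7, 0.649 and 2.08 FPKM in the 3 libraries, and 0.354 at most at 7 days; its fit lost the call without replicate 1 (log2 fold change 3.75, adjusted p = 0.308 by edgeR). The smooth muscle list summed to 1360, 228 and 1110 beside 467 to 773, and the blood endothelial list to 743, 177 and 2000 beside 247 to 397. The white adipocyte list, which shares Pck1 with the proximal tubule list, summed to 572, 837 and 3420 beside 233 to 445. In replicate 2, 14 of its members exceeded 1 FPKM, beside 14 to 15 at 7 days. Its mean log2(FPKM + 1), less the 7-day mean, was 1.36, -0.08 and 3.50 in replicates 1, 2 and 3, beside -0.29 to 0.20 at 7 days. The part of these differences in the results that follow was not tested. In bulk tissue, fewer cells of a type and less RNA per cell cannot be told apart.

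**Figure D1:**
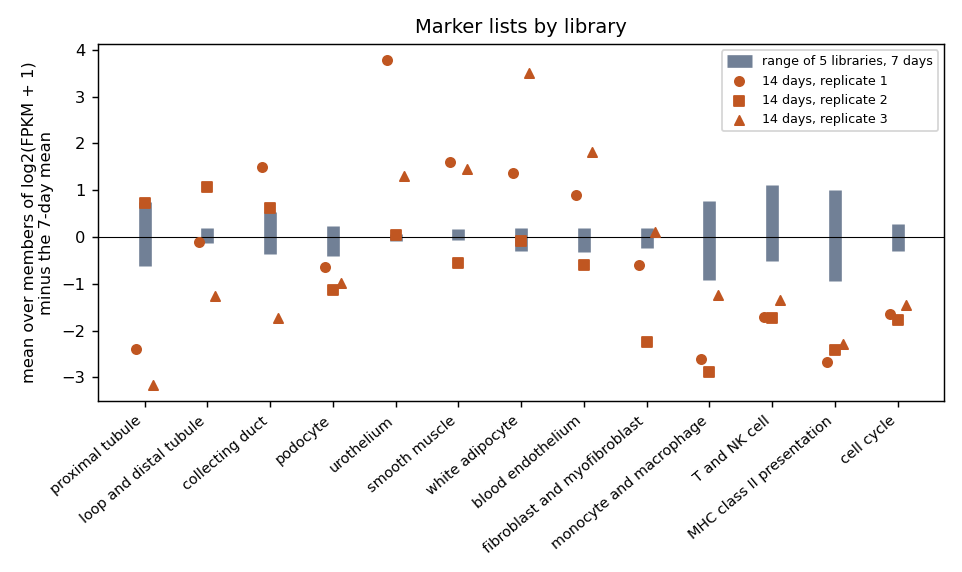
Mean over the tested members of each marker list of log2(FPKM + 1), minus the mean of the 5 libraries labelled 7 days. Grey bars span those 5 libraries and symbols are the 3 libraries labelled 14 days: they disagree for the tubule, urothelium, muscle, adipocyte and endothelial lists, and all 3 lie below the bar for the leukocyte, class II and cell cycle lists.

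Over all tested genes, 5560 passed the adjusted threshold, 38.3% of those tested, 3102 of them higher and 2458 lower at 14 days (edgeR quasi-likelihood test, Benjamini-Hochberg over 14511 genes). Called genes whose libraries did not overlap made up 25% of tested genes, 11.1% higher and 13.9% lower. Non-overlap alone, called or not, held for 26.9%. A further 1498 higher and 436 lower calls had overlapping libraries. Scaling mattered for the higher genes. TMM, the scaling used by edgeR, gave replicates 1, 2 and 3 labelled 14 days factors of 0.908, 0.697 and 0.993. The libraries labelled 7 days had factors of 1.03 to 1.09. With overlap judged on the deposited FPKM, 420 called genes were higher (2.89% of tested genes) and 2341 lower (16.1%). All 420 and all 2022 of the lower genes separated on both scales. Every 14-day factor lay below every 7-day factor, so this agreement follows from the scaling and is not a second test. A limma fit on log2(FPKM + 1) called 954 genes higher and 4894 lower, with the median over all genes at -0.26 in place of 0.07. Where replicate 2 stood for its group alone, its spread was assumed to be that of the other groups; then 16.4% of tested genes were called higher and 16.1% lower without overlap, and with replicates 1 and 3 alone 24.2% and 22.8%. Counts by gene list are given beside these shares and the 11.1% and 13.9% above. Examples of higher genes below are therefore taken from the 420 unless stated.

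The lower genes were also the more widely separated. Every library labelled 14 days lay at least 4-fold below every library labelled 7 days for 93 genes, and at least 4-fold above for 17. The median log2 fold change was -1.29 over the 2022 lower genes, 0.85 over the 1604 higher ones and 1.55 over the 420 that were higher on both scales.

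**Figure D2:**
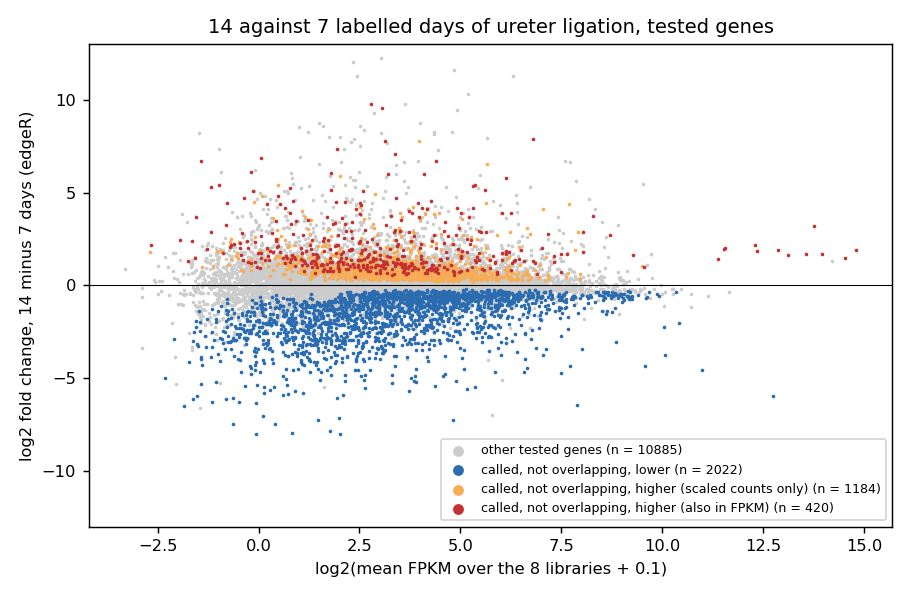
Log2 fold change of the libraries labelled 14 days over those labelled 7 days (vertical, edgeR) against log2 of the mean FPKM over the 8 libraries plus 0.1 (horizontal), 1 point a tested gene. Blue, the 2022 called and lower without overlap; red, the 420 called and higher without overlap on both scales; orange, higher without overlap in scaled counts only, mostly close to the zero line; grey, all others.

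Markers of the injured tubule fell. Of 18 tested injury markers, 9 were called lower without overlap (50%) and 0 higher, with a median log2 fold change of -1.21 beside 0.07 over all tested genes. Havcr1, which encodes kidney injury molecule 1, read 505, 420, 258, 343 and 378 FPKM in the 5 libraries labelled 7 days and 1.52, 7.45 and 0.317 in the 3 labelled 14 days (log2 fold change -6.42, SE 0.85, adjusted p = 6.36e-05, edgeR). The highest library labelled 14 days lay far below the lowest labelled 7 days. Spp1, the gene of the secreted phosphoprotein osteopontin, was the most abundant of the list at 10100, 8675, 11250, 12020 and 12750 FPKM, against 36.8, 258 and 80.1 (log2 fold change -5.97, SE 0.65, adjusted p = 1.17e-05, edgeR). Replicate 2 kept the most Havcr1 and Spp1 of the 3, and in neither gene did the groups overlap.

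Lcn2, the iron-carrier-binding lipocalin used as a urinary injury marker, went from 326, 232, 428, 101 and 326 to 12, 3.80 and 11.2 FPKM (log2 fold change -4.72, SE 0.79, adjusted p = 0.000347, edgeR). Clu, the chaperone clusterin, went from between 2090 and 4001 FPKM to 110, 48.9 and 185, a log2 fold change of -4.57 (SE 0.40). Here replicate 2 was the lowest of the 3, unlike for Havcr1. Cd44, the hyaluronan receptor of injured epithelium, fell from between 25.9 and 41.9 to 4.67, 4.96 and 5.72 FPKM and Krt8, a simple epithelial keratin, from between 199 and 310 to 95.9, 57.8 and 129. Their log2 fold changes were -2.54 (SE 0.41) and -1.19 (SE 0.19), so the keratin moved least. With replicate 2 as the only library labelled 14 days, 11 of the 18 markers were called lower without overlap and 1 higher, and with replicates 1 and 3 alone, 9 were lower and 1 higher.

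Signals that injured epithelium and fibroblasts secrete were lower as well. Of 22 tested chemokines and cytokines, 8 were lower without overlap (36.4%) and 0 higher (median log2 fold change -1.22). Il24, a cytokine of the interleukin 20 subfamily, read 71.4, 33.7, 32.3, 39.2 and 47.8 FPKM at 7 days and 0.135, 0 and 0.536 at 14 days (log2 fold change -7.24, SE 0.65, adjusted p = 3.33e-06, edgeR). The 3 libraries labelled 14 days held 5 counts of it between them. Lif, the leukaemia inhibitory factor of the interleukin 6 family, read 30.0, 19.7, 16.5, 15 and 31.6 and then 0.564, 0.719 and 0.209 (log2 fold change -5.17, SE 0.48, adjusted p = 3.73e-06, edgeR), and Socs3, the feedback inhibitor that this family induces, read 93.3, 103, 73.9, 95.9 and 98.4 and then 4.18, 4.53 and 13.8, a log2 fold change of -3.36 (SE 0.46). Each of the 3 had its highest 14-day library below its lowest 7-day library.

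Complement and acute phase genes followed the same direction, with 8 of 18 lower without overlap (44.4%), 0 higher, and a median of -1.35. C3, the central component of complement, read 14.2, 62.2, 21.4, 74.8 and 60.9 FPKM and then 0.612, 1.45 and 0.963 (log2 fold change -5.16, SE 0.93, adjusted p = 0.000633, edgeR), with an uneven 7-day group that still did not reach the 14-day values. Cfi, complement factor I, a protease that inactivates C3b, fell from between 10.0 and 37 to 0.300, 0.340 and 0.890 FPKM. With voom and sample quality weights, which gave replicate 2 a weight of 0.101, both genes lost the call (adjusted p = 0.056 for C3 and 0.066 for Cfi, limma), at log2 fold changes of -5.32 and -5.42. Cxcl16, a chemokine of tubules that attracts lymphocytes, fell from between 143 and 219 to 54.7, 31.8 and 53.1, a smaller change on the log2 scale (-1.61 (SE 0.19)).

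Of 26 immediate early and stress genes, 8 were lower without overlap (30.8%) and 0 higher, with a median of -0.47. Myc, the growth-promoting transcription factor, read 91.7, 79.1, 69, 60.3 and 85.5 FPKM and then 5.37, 10.8 and 10.4 (log2 fold change -2.77, SE 0.24, adjusted p = 2.69e-06, edgeR). Junb, an AP-1 subunit, went from between 131 and 226 FPKM to 46.7, 55.8 and 49.3, Atf3, a stress-induced factor, from between 17.8 and 31.3 to 1.76, 2.16 and 2.50, and Egr2 from between 9.18 and 17.6 to 0.388, 0.440 and 1.92. In deposited FPKM the 3 libraries labelled 14 days lay close together for Junb and Atf3. With replicates 1 and 3 alone, 10 members of this list were called lower and 6 higher (23.1%, beside 24.2% of all genes), and with replicate 2 alone 7 were lower and 0 higher.

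**Figure D3:**
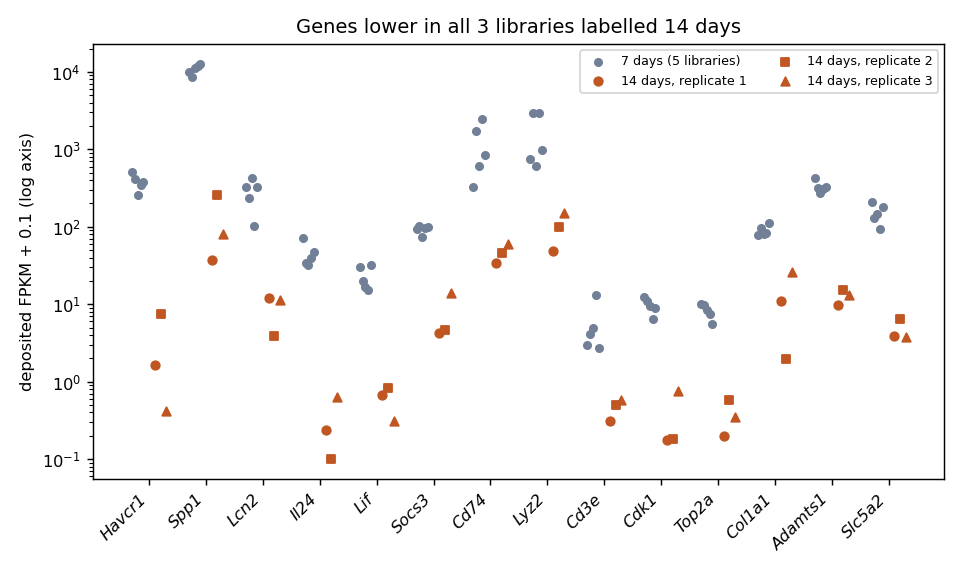
Deposited FPKM plus 0.1 on a log axis for 14 genes that were lower without overlap. Grey points are the 5 libraries labelled 7 days and orange symbols the 3 labelled 14 days, which lie below every grey point of the same gene.

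Genes of antigen presentation by class II major histocompatibility molecules were among the most uniformly lower. Of 14 tested, 12 were lower without overlap, beside 13.9% of all genes, and the median log2 fold change was -3.42. Their promoters are known for a shared S-X-Y arrangement bound by the factors that Ciita, the class II transactivator, assembles on, and the Y box holds an inverted CCAAT sequence. The promoters of 3 of the lower genes follow, from RefSeq on GRCr8, 250 bases before to 50 after the gene's start, 5′ to 3′ on the gene's strand. Capitals mark ATTGG on either strand. RT1-Da lies at chr20:4515165-4515464 (plus strand), RT1-Ba at chr20:4576807-4577106 (plus strand) and RT1-Db1 at chr20:4560113-4560412 (minus strand).
RT1-Da: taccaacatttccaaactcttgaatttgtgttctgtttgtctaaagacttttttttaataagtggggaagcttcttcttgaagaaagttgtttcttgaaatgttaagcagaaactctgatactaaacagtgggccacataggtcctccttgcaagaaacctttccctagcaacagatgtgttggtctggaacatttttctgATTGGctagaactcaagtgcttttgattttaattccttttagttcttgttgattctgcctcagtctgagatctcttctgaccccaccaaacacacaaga
RT1-Ba: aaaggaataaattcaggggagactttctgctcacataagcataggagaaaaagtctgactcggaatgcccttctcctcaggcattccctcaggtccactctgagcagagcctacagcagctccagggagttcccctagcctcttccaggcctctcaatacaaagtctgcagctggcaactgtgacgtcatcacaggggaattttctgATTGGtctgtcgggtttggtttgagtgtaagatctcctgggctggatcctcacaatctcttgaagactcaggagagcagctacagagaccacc
RT1-Db1: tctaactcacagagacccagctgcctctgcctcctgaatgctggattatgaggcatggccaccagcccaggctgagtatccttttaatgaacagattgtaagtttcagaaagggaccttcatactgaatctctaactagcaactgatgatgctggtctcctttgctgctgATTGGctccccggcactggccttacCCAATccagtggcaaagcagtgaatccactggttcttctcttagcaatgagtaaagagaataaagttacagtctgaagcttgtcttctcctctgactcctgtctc
ATTGG stood once in the RT1-Da and RT1-Ba windows, and both strands of RT1-Db1 held it. Of the 13 members of the list with a promoter in the table, 10 held it (76.9%), and of all 33469 promoters 37.5% did. A match is a description of letters and was not tested as a binding site.

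Cd74, the invariant chain that guides class II molecules to the endosome, read 326, 1724, 605, 2470 and 841 FPKM at 7 days and 34.3, 46.4 and 59.7 at 14 days (log2 fold change -4.34, SE 0.61, adjusted p = 9.83e-05, edgeR). RT1-Da, an alpha chain, read 34.5, 256, 68.8, 339 and 94.6 and then 4.69, 5.19 and 7.28 (log2 fold change -4.47, SE 0.69, adjusted p = 0.000198, edgeR). The 7-day libraries were uneven, with replicates 2 and 4 highest for both genes, while the 14-day libraries lay close together. RT1-Ba fell from between 16.6 and 117 to 1.67, 1.64 and 2.26 FPKM, RT1-Db1 from between 6.52 and 57.5 to 1.32, 1.49 and 1.64, and Ciita from between 1.92 and 12.9 to 0.199, 0.613 and 0.310. Lower without overlap were 9 of 14 with replicate 2 alone and 13 of 14 with replicates 1 and 3 alone, where all 14 were called.

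Markers of macrophages and T cells were lower in the same libraries. Ptprc, the pan-leukocyte gene of CD45, read 11.2, 22.6, 9.83, 27.5 and 12.2 FPKM and then 2.05, 2.15 and 3.50 (log2 fold change -2.39, SE 0.38, adjusted p = 0.000235, edgeR). Of 26 monocyte and macrophage genes, 16 were lower without overlap (61.5%) and 0 higher (median -2.61). Lyz2, a lysozyme of myeloid cells, read 741, 2990, 602, 2985 and 980 FPKM and then 49.2, 101 and 149 (log2 fold change -3.73, SE 0.58, adjusted p = 0.000222, edgeR), with the top 14-day library well below the bottom 7-day one. Clec10a, a galactose-binding lectin of myeloid cells, fell from between 15.5 and 82.8 to 1.11, 0.540 and 5.18, and Fcgr3a, an activating Fc receptor, from between 2.31 and 36.4 to 0.794, 0.809 and 1.18.

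Of 23 genes of T and natural killer cells, 17 were lower without overlap (73.9%) and 0 higher (median -2.75). Cd3e, a chain of the T cell receptor complex, read 2.84, 4, 4.90, 13 and 2.63 FPKM and then 0.209, 0.394 and 0.482 (log2 fold change -3.59, SE 0.62, adjusted p = 0.000456, edgeR). Replicate 4 of the 7-day group carried the most Cd3e, and the other 4 still exceeded every library labelled 14 days. Cd3g fell from between 6.53 and 28.1 to 1.53, 0.865 and 0.503 FPKM and Nkg7, a granule protein of cytotoxic lymphocytes, from between 1.86 and 15.1 to 0.178, 0.404 and 0.880. With voom and sample quality weights the 3 genes lost the call (adjusted p = 0.0603, 0.0686 and 0.122, limma), at log2 fold changes of -3.51, -2.86 and -3.31. The smaller B cell and neutrophil lists were less uniform. Of 12 genes of B and plasma cells 3 were lower without overlap (25%) and 1 higher (8.33%). Of 7 of neutrophils 2 were lower (28.6%) and 0 higher, beside 13.9% lower and 11.1% higher over all genes. The mean log2(FPKM + 1) of both, less the 7-day mean, lay within the 7-day range in replicate 3 (0.07 beside -0.64 to 0.91, and 0.84 beside -0.88 to 1.12), and that of neutrophils in replicate 2 as well (-0.71). In the interferon response list, 1 of 24 members was lower without overlap (4.17%), 0 were higher, and the median was 0.53.

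Genes of the cell division cycle were lower in 30 of 35 cases without overlap, with 0 higher and a median of -2.20. Many promoters of this kind carry CCAAT boxes and a cell cycle genes homology region, TTTGAA, through which a repressor complex acts in resting cells. Cdk1 at chr20:19265043-19265342 (plus strand), Top2a at chr10:84473044-84473343 (minus strand) and Ccnb1 at chr2:33655176-33655475 (minus strand) are shown on the same build and window, with capitals at ATTGG and TTTGAA on either strand. No 2 matches overlap.
Cdk1: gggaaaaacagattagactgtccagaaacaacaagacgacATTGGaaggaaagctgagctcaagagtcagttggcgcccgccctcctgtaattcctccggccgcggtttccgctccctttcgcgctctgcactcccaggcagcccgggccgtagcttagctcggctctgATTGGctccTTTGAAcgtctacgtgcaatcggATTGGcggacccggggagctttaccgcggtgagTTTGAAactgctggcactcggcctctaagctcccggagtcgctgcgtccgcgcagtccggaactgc
Top2a: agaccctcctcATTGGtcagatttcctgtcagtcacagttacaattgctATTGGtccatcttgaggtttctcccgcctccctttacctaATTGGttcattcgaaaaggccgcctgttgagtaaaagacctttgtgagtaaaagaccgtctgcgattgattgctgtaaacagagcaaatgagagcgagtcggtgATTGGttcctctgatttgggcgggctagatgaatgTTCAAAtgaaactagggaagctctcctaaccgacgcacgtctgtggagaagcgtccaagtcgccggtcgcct
Ccnb1: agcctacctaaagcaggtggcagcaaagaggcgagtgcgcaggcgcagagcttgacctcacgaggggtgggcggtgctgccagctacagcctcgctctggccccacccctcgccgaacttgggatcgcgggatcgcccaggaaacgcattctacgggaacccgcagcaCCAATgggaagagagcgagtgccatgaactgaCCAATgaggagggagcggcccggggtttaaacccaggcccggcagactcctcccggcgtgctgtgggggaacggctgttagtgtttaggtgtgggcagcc
Cdk1 held ATTGG 3 times and TTTGAA 2 times, Top2a 4 times and 1 time, and Ccnb1 2 times and 0 times. Over the 26 members with a promoter in the table, 19 held ATTGG (73.1%) and 12 held TTTGAA (46.2%), beside 37.5% and 18.3% of all promoters. No match in a window says nothing of a factor beyond those letters.

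Cdk1, the kinase that starts mitosis, read 12.5, 11, 9.49, 6.32 and 8.76 FPKM at 7 days and 0.0738, 0.0836 and 0.656 at 14 days (log2 fold change -4.82, SE 0.53, adjusted p = 1.35e-05, edgeR). Top2a, the topoisomerase of dividing cells, read 10.0, 9.69, 8.27, 7.27 and 5.44 and then 0.0992, 0.478 and 0.245 (log2 fold change -4.55, SE 0.47, adjusted p = 9.04e-06, edgeR). In both genes all libraries labelled 14 days stayed below 1 FPKM. Ccnb1, the cyclin partner of Cdk1, fell from between 7.07 and 12.5 to 0.489, 0.554 and 0.386, and Mki67, the Ki-67 antigen, from between 4.61 and 7.06 to 0.175, 0.342 and 0.518. With replicate 2 alone 28 members were called lower and with replicates 1 and 3 alone 30 were. Cdkn1a, the inhibitor p21 and a p53 target, fell less, from between 18 and 32.5 to 10.5, 6.09 and 13.2 FPKM (log2 fold change -0.96 (SE 0.23)).

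Matrix genes were lower in part. Of 31 collagens and matrix proteins, 12 were lower without overlap (38.7%) and 0 higher (median -0.96), and of 29 genes of matrix crosslinking and proteolysis 12 were lower (41.4%) and 1 higher, with 0 higher on both scales (median -0.78). Col1a1, the main chain of fibrillar type I collagen, read 78.6, 97.7, 81.1, 82.4 and 113 FPKM at 7 days and 10.9, 1.83 and 26.1 at 14 days (log2 fold change -2.63, SE 0.49, adjusted p = 0.000764, edgeR). Replicate 2 had the least, and the fibroblast and myofibroblast list summed to 1210, 150 and 1760 FPKM in replicates 1, 2 and 3 beside 877 to 1310. Acta2, the smooth muscle actin of myofibroblasts, overlapped, at 292, 48.3 and 255 FPKM beside 83.4 to 143, and did not pass the threshold (log2 fold change 1.00, adjusted p = 0.0582, edgeR). It passed without replicate 2 (1.44, adjusted p = 0.00229, edgeR), with voom and sample quality weights (1.32, adjusted p = 0.0399, limma) and with DESeq2 (1.02, adjusted p = 0.0395). With replicates 1 and 3 alone, 13 of the 31 matrix genes were called lower and 7 higher. These were 41.9% and 22.6% of the list, beside 22.8% and 24.2% of all genes. The mean log2(FPKM + 1) of the list, less the 7-day mean, was -0.98, -2.49 and -0.02 in replicates 1, 2 and 3. At 7 days it ran from -0.22 to 0.25, a range that held replicate 3.

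Col12a1, a collagen that decorates fibrils under tension, fell from between 23.6 and 53.7 to 3.56, 4.38 and 1.93 FPKM (log2 fold change -2.95 (SE 0.40)). Thbs1, thrombospondin 1, fell from between 31.6 and 127 to 20.4, 7.80 and 14, and Fbln5, an elastic fibre protein, from between 51 and 125 to 10.8, 14.5 and 14.9. In these 3, no single library labelled 14 days stood high. Loxl1, a lysyl oxidase that crosslinks elastin, read 106, 118, 65.2, 106 and 137 and then 7.59, 7.96 and 14.7 (log2 fold change -3.11, SE 0.29, adjusted p = 3.73e-06, edgeR), and Adamts1, a protease that cleaves versican, read 423, 314, 275, 304 and 326 and then 9.56, 15.4 and 12.9 (log2 fold change -4.34, SE 0.37, adjusted p = 2.21e-06, edgeR). In scaled counts the 3 Adamts1 values labelled 14 days spanned 1.06 log2 units, beside 0.87 for the median gene.

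In the list of TGF-beta, CCN and Wnt signals, 7 of 32 members were lower (21.9%) and 4 higher (12.5%) without overlap, 2 of these on both scales, and the median was -0.02. The share of higher members was close to the 11.1% over all genes. Tgfb2, a TGF-beta ligand, fell from between 6.74 and 20.4 to 1.43, 0.920 and 1.90 FPKM (log2 fold change -3.14, SE 0.43, adjusted p = 7.68e-05, edgeR). Sfrp1, a secreted Wnt antagonist, fell from between 45.3 and 78.5 to 13.3, 4.71 and 17.5 and Ltbp2, a microfibril protein related to the latent TGF-beta binding proteins, from between 3.90 and 7.81 to 0.405, 0.970 and 1.92. Sfrp2, a related antagonist, rose from between 1.67 and 4.97 to 6.10, 6.38 and 7.75 (log2 fold change 1.49, SE 0.32, adjusted p = 0.00212, edgeR), and was alike in the 3. Tgfb1, the ligand most often linked to fibrosis, read 35, 7.48 and 57.2 beside 38.5 to 68.5 and did not pass the threshold (adjusted p = 0.259, edgeR); without replicate 3 it passed, at a log2 fold change of -1.06 (adjusted p = 0.0397).

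Markers of the proximal tubule were lower in all 3 for some members only. The list holds carriers, enzymes and other genes, among them Umod. Of 30 tested, 7 were lower without overlap (23.3%) and 0 higher, yet the median log2 fold change was 0.53. Slc5a2, the glucose carrier SGLT2 of the early segment, read 206, 130, 145, 94.6 and 180 FPKM and then 3.81, 6.30 and 3.72 (log2 fold change -4.66, SE 0.57, adjusted p = 3.18e-05, edgeR). Slc5a12, a lactate carrier, read 26.7, 19, 22.8, 12.6 and 25.9 and then 0.802, 0.588 and 0.233 (log2 fold change -4.98, SE 0.61, adjusted p = 3.18e-05, edgeR). In both genes replicate 2 also lay below the lowest 7-day library, although its summed proximal tubule level was the highest of the 8 libraries. By the mean log2(FPKM + 1) of the list, replicate 2 lay within the 7-day range. Slc7a7, a cationic amino acid exchanger subunit, fell from between 98.2 and 195 to 6.09, 2.60 and 16.4, and Slc6a19, a neutral amino acid carrier, from between 6.75 and 18.6 to 1.17, 2.15 and 0.478. Slc5a12 and Slc6a19 lost the call with voom and sample quality weights (adjusted p = 0.063 and 0.0552, limma, at log2 fold changes of -5.04 and -3.66). Slc6a19 also lost it with replicate 2 alone (-2.10, adjusted p = 0.0751, edgeR).

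Other carriers of that segment split the 3 libraries. Slc34a1, the phosphate carrier, read 54.9, 586 and 8.17 FPKM in replicates 1, 2 and 3 beside 147 to 822, and Lrp2, the endocytic receptor megalin, 6.83, 191 and 2.91 beside 39.9 to 140. Neither was called (adjusted p = 0.82 and 0.877, edgeR). Without replicate 2 both were lower, at log2 fold changes of -3.48 and -3.95 (adjusted p = 0.0173 and 0.000102, edgeR). With replicate 2 alone, 15 of the 30 members were called higher and 5 lower, and with replicates 1 and 3 alone 0 were higher and 20 lower.

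In the distal nephron, Trpv5, the apical calcium channel, fell from between 12 and 34.3 to 0.959, 1.39 and 0 FPKM (log2 fold change -4.48, SE 0.89, adjusted p = 0.00123, edgeR). It was the only lower member without overlap (5.26%) among 19 of the loop and distal list. In that list 3 were higher (15.8%), 2 of these on both scales, beside 11.1% higher and 13.9% lower over all genes. Of 22 collecting duct genes, 6 were higher (27.3%) and 0 lower without overlap, and 3 of the 6 were higher on both scales. The mean log2(FPKM + 1) of the list, less that of the 7-day libraries, was -1.73 in replicate 3 beside -0.36 to 0.54 at 7 days, and lay above that range in replicates 1 and 2. Replicate 3 was thus low for the list, while in scaled counts it lay above the 7-day libraries for those 6. Rhbg, an ammonia transporter of the distal nephron, rose from between 13.2 and 27.8 FPKM to 57.3, 54.5 and 54.8 (log2 fold change 1.85, SE 0.25, adjusted p = 6.52e-05, edgeR), nearly equal in the 3 libraries. Fxyd4, a regulator of the sodium pump in the collecting duct, read 294, 9.14 and 237 beside 2.21 to 5.48, so replicate 2 lay just above the 7-day range and the other two far above; with replicate 2 alone it was not called (adjusted p = 0.285, edgeR). Of 15 podocyte genes, 5 were lower without overlap (33.3%) and 0 higher (median -0.78). Tcf21, a transcription factor of podocytes and stromal cells, fell from between 44.1 and 79.5 to 18.8, 5.09 and 12.8, and Ptpro, a podocyte membrane phosphatase, from between 7.29 and 17.2 to 2.17, 3.09 and 0.917.

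**Figure D4:**
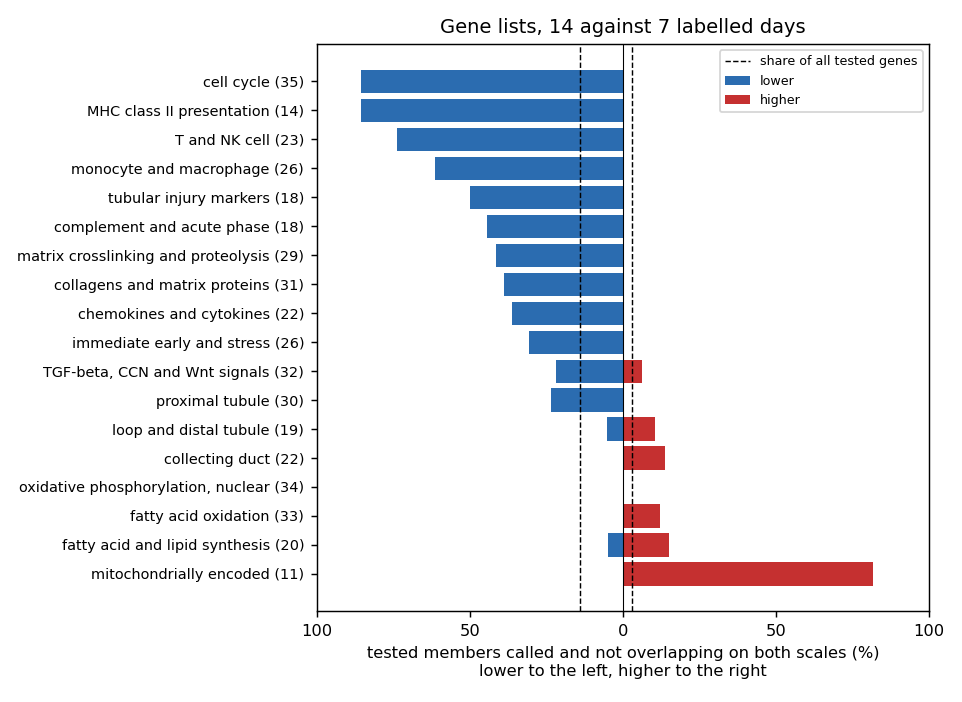
Percent of the tested members of 18 gene lists (number tested in parentheses) that were called and did not overlap on both scales, lower to the left in blue and higher to the right in red. Dashed lines mark the same shares over all tested genes, 13.9% lower and 2.89% higher: cell cycle and class II genes stood at 85.7% lower.

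Few genes were clearly higher in all 3 libraries. Cryab, the small heat shock protein alpha B-crystallin, had the widest separation among genes with a mean of at least 5 FPKM, at 52.1, 69.4, 87.7, 58.4 and 70.4 FPKM at 7 days and 820, 556 and 782 at 14 days (log2 fold change 3.71, SE 0.54, adjusted p = 0.000127, edgeR). Slc45a3, a sugar carrier, read 3.62, 3.89, 3.60, 2.80 and 2.86 and then 47.6, 18.6 and 41.8 (log2 fold change 3.68, SE 0.44, adjusted p = 2.51e-05, edgeR). Both belong to the 17 genes separated by at least 4-fold, from which these examples were chosen after their values were seen. Ranbp3l, a Ran-binding protein, rose from between 2.51 and 7.09 to 206, 26.6 and 141 FPKM, with replicate 2 the least, and Slc25a48, a mitochondrial carrier, from between 1.63 and 7.05 to 55.8, 25.8 and 48.2. Dnase1, a secreted nuclease, rose from between 3.63 and 37.4 to 166, 218 and 147, with replicate 2 the highest. Stc2, the glycoprotein stanniocalcin 2, rose from between 0.215 and 1.03 to 5.75, 24.1 and 14.4, also with replicate 2 the highest.

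Esrrb, an orphan nuclear receptor found in distal nephron cells, read 1.26, 1.01, 1.28, 1.26 and 0.781 FPKM and then 11.6, 4.78 and 12.4 (log2 fold change 3.33, SE 0.38, adjusted p = 1.7e-05, edgeR). Fa2h, which adds a hydroxyl group to the fatty acids of sphingolipids, read 2.44, 3.08, 2.27, 2.21 and 2.23 and then 24.5, 9.72 and 24.6 (log2 fold change 3.26, SE 0.31, adjusted p = 4.06e-06, edgeR). Replicate 2 was the lowest of the 3 in both genes and still exceeded all 5 libraries labelled 7 days. Ptgs2, the inducible cyclooxygenase, rose from between 0.485 and 1.09 to 11.7, 2.76 and 7.27 and Nos1, the neuronal nitric oxide synthase of the macula densa, from between 0.0898 and 0.593 to 5.84, 0.659 and 5.05; with replicate 2 alone neither was called (adjusted p = 0.129 and 0.104, edgeR).

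**Figure D5:**
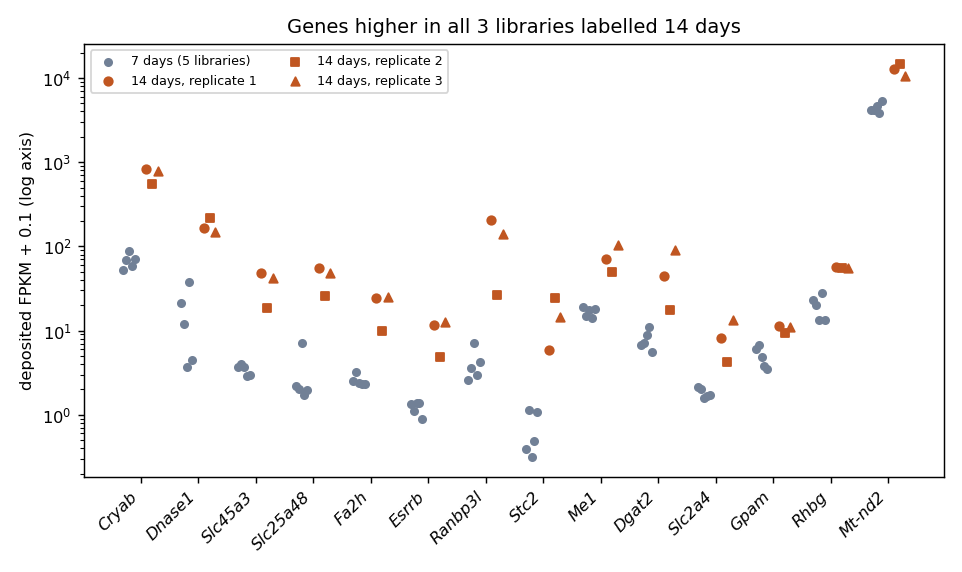
Deposited FPKM plus 0.1 on a log axis for 14 genes that were higher without overlap on both scales. Grey points are the 5 libraries labelled 7 days and orange symbols the 3 labelled 14 days; replicate 2 (square) is the lowest of the 3 for most genes, and the highest for Dnase1, Stc2 and Mt-nd2.

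Genes of lipid synthesis were higher in 6 of 20 cases (30%), 3 of them on both scales, and lower in 1 (median 0.71). Me1, the malic enzyme that makes NADPH for fatty acid synthesis, read 19, 14.6, 17.5, 13.9 and 17.7 FPKM and then 70.5, 48.9 and 103 (log2 fold change 2.43, SE 0.14, adjusted p = 7.46e-08, edgeR). Gpam, the acyltransferase of the first step of glycerolipid synthesis, read 5.99, 6.67, 4.76, 3.74 and 3.38 and then 11.2, 9.24 and 11 (log2 fold change 1.41, SE 0.19, adjusted p = 6.11e-05, edgeR). Dgat2, the enzyme of the last step of triglyceride synthesis, read 6.55, 7.10, 8.78, 10.9 and 5.46 and then 44.1, 17.3 and 91 (log2 fold change 2.92, SE 0.35, adjusted p = 2.5e-05, edgeR). In deposited FPKM the libraries labelled 14 days were the highest in all 3 genes, replicate 2 with the least of the 3. For Gpam, the fit on scaled counts gave a log2 fold change of 1.52 with replicate 2 alone and 1.36 without it. Slc2a4, the insulin-regulated glucose carrier of fat and muscle, rose from between 1.47 and 2.02 to 8.14, 4.19 and 13.2 and Cidec, a lipid droplet protein, from between 2.86 and 11.5 to 14.7, 37.4 and 114. Adipoq, the adipocyte hormone adiponectin, read 17.4, 3.65 and 96.9 FPKM in the same libraries beside 4.94 to 9.38; it overlapped, and was lower in replicate 2 than in every 7-day library. Its call (log2 fold change 2.49 (SE 0.62)) was lost without replicate 3, at 0.76 (adjusted p = 0.253, edgeR). The part of adipocyte RNA in the lipid genes was not tested.

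Transcripts of mitochondrial DNA were higher in 9 of 11 cases on both scales (median 1.89). Mt-nd2, a subunit of complex I, read 4194, 4156, 4591, 3869 and 5297 FPKM and then 12810, 14800 and 10700 (log2 fold change 1.89, SE 0.27, adjusted p = 0.000115, edgeR). Mt-co1, a subunit of cytochrome oxidase, rose from between 15520 and 18610 to 57940, 59920 and 27340. Of 34 nuclear genes of oxidative phosphorylation, 0 were called in either direction, with a median of 0.02; 0 had an unadjusted p under 0.05 by edgeR, and DESeq2 called 0. The libraries did not move together: the mean log2(FPKM + 1) of the list, less the 7-day mean, was -0.84, 0.25 and -0.82 in replicates 1, 2 and 3 beside -0.08 to 0.13. With replicate 2 alone 24 were called higher, and with replicates 1 and 3 alone 30 were called lower. Of 27 glutathione and antioxidant genes, 3 were higher without overlap (11.1%, the same share as over all genes) and 1 lower, with a median of 0.27. The mean log2(FPKM + 1) of that list, less the 7-day mean, was -0.83, 0.61 and -0.80 in replicates 1, 2 and 3. Gsr, glutathione reductase, rose from between 49.2 and 64 to 122, 70.6 and 135 FPKM (log2 fold change 1.19, SE 0.17, adjusted p = 0.000128, edgeR). Nqo1, a quinone reductase induced by oxidants, rose from between 7.19 and 8.12 to 19.8, 10.5 and 19.5. Its log2 fold change was 1.41, and 1.07 with replicate 2 alone.

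The libraries labelled 1 and 3 days did not enter the overlap rule, so the kept genes were placed against them. Of the 2022 lower genes, 898 (44.4%, or 6.19% of tested genes) also lay below all 10 of those libraries in all 3 labelled 14 days. Without the call or the 7-day rule, 7.7% of tested genes did. Of the 1604 higher genes, 475 (29.6%, or 3.27% of tested genes) lay above all 10, beside 4.46% of tested genes without those conditions. The comparisons share the libraries labelled 14 days. For Havcr1, the 10 libraries read 188 to 1040 FPKM, for Spp1 5641 to 15440, for Lcn2 128 to 1674 and for Slc5a2 33.3 to 230, all above the 3 libraries labelled 14 days. Of the lower cell cycle genes, 20 of 30 lay below the earlier times too, as did 6 of 12 class II genes and 6 of 9 injury markers. Col1a1 did not: the earlier libraries read 13.7 to 31.7 FPKM, a range that held replicate 3 labelled 14 days. Replicates 1 and 2 lay below that range. Cryab read 25.1 to 228 and Me1 21.2 to 30.4 at 1 and 3 days, below the 14-day libraries in both genes.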

How the data were processed

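RNA was poly(A)-selected and sequenced, per the labels' protocols. The tools fastp 0.19.7 and HISAT2 2.0.4 were used, per the submitters' processing notes; the sources used here name no genome build or counting tool. The authors deposited 1 table with a count and an FPKM per gene and library. The deposited FPKM values carry no scaling beyond length and each library's total. Genes passing filterByExpr (minimum count 10, 14511 of 30957) were fitted with edgeR 4.0.16 (R 4.3.3; TMM, quasi-likelihood test, all 18 libraries, 1 coefficient per labelled duration, two-sided), with Benjamini-Hochberg adjustment at 0.05. Overlap was judged on TMM-scaled CPM. Fits with limma 3.58.1 and DESeq2 1.42.0 were alternatives, and the fit was tested on simulated data. Of 994 members of 49 gene lists, 937 matched by symbol and 16 by an older symbol. Candidates for naming were the 12 largest called changes without overlap in each direction and up to 4 per list by size. These had a mean of at least 5 FPKM, and a short set of markers was added. Not all candidates were named, and other genes were chosen after their values were seen. Left out were, among others, the higher Anxa8 (31.5, 0.461 and 22.8 FPKM in replicates 1, 2 and 3) and Actg2 (123, 1.25 and 39.8). The lower Adra1d and AABR07065559.1 were also left out. The members and lists were chosen with earlier results of these data known. No 2 libraries were duplicates: the largest rank correlation was 0.989 and at most 1.5% of counts were equal.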

Additional observations from a re-analysis of the deposited data

Results flagged for a closer look

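In 10 of 100 named genes, 1 of the 5 libraries labelled 7 days stood apart from the other 4 by Dixon's test on FPKM, which chance flags in about 1 of 20 groups. Replicate 4 was high for Cd3e (13 FPKM, the next 4.90), Cd3g (28.1, the next 10.4) and Umod (224, the next 106). Replicate 3 was low for Cd44 (25.9, the next 37.9) and high for Slc25a48 (7.05, the next 2.11). Replicate 1 was high for Stra6 (35.8, the next 19.8), a retinol transporter, and for Wnt9b (0.388, the next 0.196), and replicate 2 for Fbln5 (125, the next 68.9) and Fa2h (3.08, the next 2.44). Replicate 5 was high for Egr2 (17.6, the next 10.6). Groups of 3 were not tested in this way.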

How the results depend on the processing

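Called genes numbered 4559 to 7459 when 1 library was left out (2446 to 3896 higher, 2113 to 3563 lower), and called genes without overlap 3495 to 6973 (1539 to 3587 higher, 1956 to 3386 lower). Each upper end came without replicate 2 labelled 14 days, and that setting, replicates 1 and 3 alone, gave 6973, 3587 and 3386 without overlap; replicate 2 alone gave 2475 higher. With the 8 libraries only, 3153 were called (1689 higher, 1464 lower). A test against a log2 fold change of 1 called 1064 (430 and 634), of which 866 did not overlap (234 and 632). On log2(FPKM + 1), limma called 954 higher and 4894 lower (378 and 3685 without overlap), and on log2(FPKM + 0.1) 873 and 4981 (375 and 3700). Overlap judged on FPKM left 420 higher. The cause was not tested. The other settings stayed within 1.5 times. A refitted value counted as reversed only where its sign changed and the main or the refitted value was called. Acta2 (1.00 to -0.65), Slc34a1 (-0.36 to 1.11) and Pax8 (0.17 to -0.22) with replicate 2 alone were therefore not counted. Of 2292 refitted values over 100 named genes, 89 lost a call, 14 gained one and 9 reversed. Voom with sample quality weights, which gave replicate 2 a weight of 0.101, took the call from 18 of them, among them RT1-Ba, Ciita, Fcgr3a, Atf3, Cdkn1a and Trpv5 (adjusted p = 0.0658, 0.124, 0.218, 0.203, 0.0745 and 0.0511). Replicate 2 alone took it from 17. Lrp2 reversed from 0.22 to -2.17 and -2.34 with limma on log2(FPKM + 1) and log2(FPKM + 0.1) and to -3.39 with voom, and ran from -3.95 to 0.77 as 1 library was left out. Umod reversed from 3.41 to -0.27 with voom and ran from -1.02 to 3.96 as 1 library was left out, and Adipoq from 2.49 to -0.47 with replicate 2 alone. A replicate block gave 4485 calls (2321 higher, 2164 lower), 3335 without overlap (1461 and 1874). Deviations of equally numbered libraries from their group means correlated at 0.23, -0.16 and -0.44 for numbers 1, 2 and 3. Only number 1 correlated best with its own number. These 3 values cannot decide whether equal numbers pair libraries, since the libraries labelled 14 days differ in make-up. With 3 libraries of unlike make-up, changes shared by all 3 are those described, and changes of a segment present in 1 or 2 of them are not resolved.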
